A study of Drosophila melanogaster with 6 samples.

Results

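The genes described here are 28 genes of Drosophila melanogaster that still carry only a CG number, the identifier given to a predicted gene, and whose transcripts were much lower in larval blood cells expressing Idh-R195H than in control blood cells. They were chosen from the measured values: a single CG symbol in the array annotation, an intensity above 300 on all 3 control arrays and, on all 3 Idh-R195H arrays, an intensity below the lowest control value divided by 3. The array held 5209 CG genes, of which 1350 were above 300 on all control arrays. Of the 11 CG genes that the rule leaves out by name, CG11899 and CG6287 also met both thresholds.

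Hemocytes in circulation were taken from wandering larvae of the third instar, in 2 groups of 3 samples. The Idh-R195H group carried hml-Gal4, UAS-2xEGFP and UAS-Idh-R195H, where Idh-R195H is the fly counterpart of the cancer-associated R132H mutant of human IDH1. The control group carried hml-Gal4 and UAS-2xEGFP alone, so both groups had the driver, which acts in hemocytes, and the green fluorescent reporter. Each sample pooled the hemocytes of 400 larvae from 24-hour egg lays at 29 °C, harvested on day 7, and was hybridised to 1 array. In such pooled cells, fewer cells of a type and less RNA per cell cannot be told apart.

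Hemocytes of the fly larva are mostly plasmatocytes, which engulf particles and secrete matrix, with a few crystal cells, which hold the enzymes of melanization. Lamellocytes, large flat cells that wrap parasites, are rare in unchallenged larvae. The larval salivary gland makes glue proteins (the Sgs genes) shortly before pupariation, and the fat body makes storage and lipid-carrying proteins that it releases into the blood. Isocitrate dehydrogenase normally makes 2-oxoglutarate, and the cancer-associated human mutants make 2-hydroxyglutarate from it.

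The label of the arrays as hemocytes was checked first. Hml, a clotting protein gene whose enhancer gives the driver its name, had intensities of 16213, 17483 and 14685 on the Idh-R195H arrays and 22128, 14541 and 12663 on the control arrays. The summed intensity of 11 plasmatocyte markers was 133872 to 141734 in Idh-R195H and 114960.0 to 186270.0 in control, so the groups overlapped. Markers of other tissues were present too, and those of salivary gland, fat body and midgut were mostly higher on control arrays. The sum of 12 salivary gland markers was 1183, 5294 and 1951 on Idh-R195H replicates 1, 2 and 3, and 24642, 288432 and 276193 on control replicates 1, 2 and 3. The sum of 11 fat body markers was 11956, 26173 and 63497 on the Idh-R195H arrays and 52287, 140553 and 109219 on the control arrays. The salivary gland signal was therefore lowest by far on control replicate 1 among the controls, and the fat body signal of Idh-R195H replicate 3 was above that of control replicate 1. The sum of 13 midgut markers was 464 to 1878 in Idh-R195H and 2294 to 74137 in control. Summed cuticle, ring gland and Malpighian tubule markers were also lower on every Idh-R195H array than on every control array. Each of these sums rested largely on single genes, Cpr49Ac for cuticle, sro for ring gland and NtR for Malpighian tubule. Of the ring gland markers, sro had 87.9, 75.6 and 230 on the Idh-R195H arrays and 1443, 1552 and 1254 on the control arrays. Npc1a, the brightest of that list, was instead higher on every Idh-R195H array than on every control array. The 11 male gonad markers summed to 6863 to 8123 in Idh-R195H and to 3214, 8422 and 18916 on control replicates 1, 2 and 3, so the groups overlapped. Summed muscle markers were 3768 to 4183 in Idh-R195H and 2359 to 2501 in control. That direction came from TpnC73F, which alone had 2697 to 3148 in Idh-R195H and 181 to 280 in control. By mean log2 intensity, 8 of the 10 muscle markers were lower in Idh-R195H. The ratio of 3' to 5' intensity for Act5C, which rises as RNA is degraded, was 2.28 ± 0.13 in Idh-R195H and 4.78 ± 1.26 in control (SD, n = 3 each). What part these differences have in the values below was not tested, except where a value is given.

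The members' values span a wide range of differences. The lowest control value was between 3.02 and 11.9 times the highest Idh-R195H value, and the control mean was between 4.42 and 335 times the Idh-R195H mean, with a median of 9.12. The median log2 fold change of the members (Idh-R195H minus control, on log2(intensity + 1)) was -3.34, against -0.11 over all 18769 probe sets. These values chose the members and are given only as a description. Few of the 28 transcripts were dim on every Idh-R195H array: 2 of them, CG4928 and CG30197, stayed below an intensity of 100, a level that 52.4% to 53.4% of all probe sets on those arrays did not reach. Another 16 stayed at 100 or above on all 3 Idh-R195H arrays, and 10 of those stayed above 300. Most of the transcripts were thus lower in Idh-R195H hemocytes without reaching the dim range on every array.

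**Figure D1:**
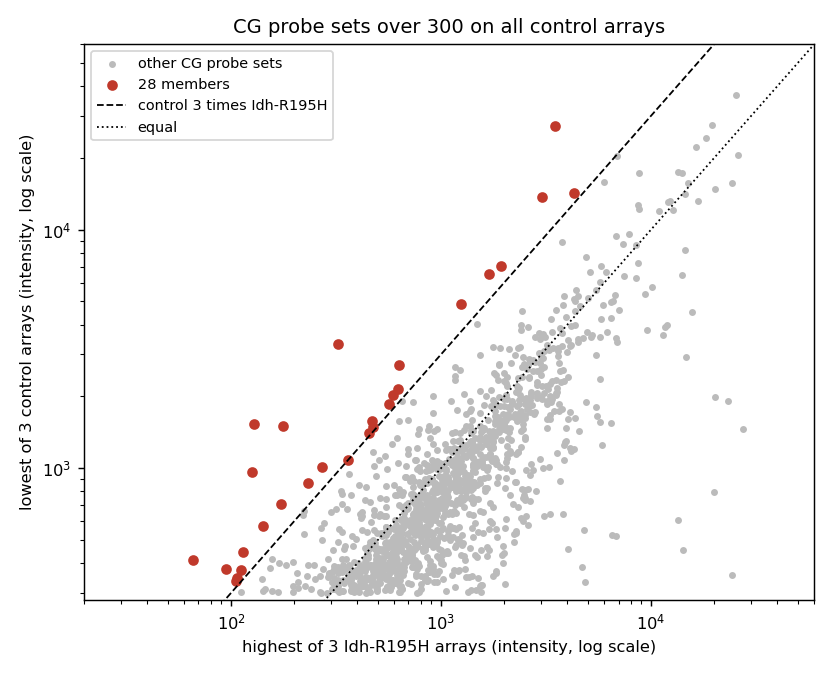
Each point is a CG probe set above 300 on all control arrays, placed by its highest Idh-R195H intensity (horizontal, log scale) and its lowest control intensity (vertical, log scale). The 28 members (red) lie above the dashed line, where control is 3 times Idh-R195H; the dotted line marks equal values.

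Near the fold threshold the members form no separate cluster. Just inside it were CG46491, CG11892 and CG1544, with a lowest control value 3.12, 3.09 and 3.02 times the highest Idh-R195H value. Just outside were CG34227, CG6770 and CG7322, at 2.95, 2.95 and 2.92. CG34227 had 123, 222 and 224 on the Idh-R195H arrays and 7026, 1051 and 660.2 on the control arrays, so its control arrays differed widely. CG6770 had 6838, 5491 and 6898 on the Idh-R195H arrays and 21975, 23476 and 20346 on the control arrays, and CG7322 had 422, 450.2 and 653 on the Idh-R195H arrays and 1906, 2090.5 and 2008 on the control arrays. Near the intensity floor, CG11825 and CG31810 met the fold threshold but had lowest control values of 277 and 273. The same thresholds were met by 37 of 3028 genes with a given name that were above 300 on all control arrays (1.22%), against 28 of 1344 such CG genes (2.08%). With the groups exchanged, 41 CG genes and 93 genes with a given name met the thresholds in the opposite direction. The numbers of genes above 300 on all Idh-R195H arrays are not given, so no shares are compared there. Over all probe sets, 0.394% met both thresholds.

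Limma, fitted over all probe sets, describes how the members' differences compare with the spread between arrays. At an adjusted p below 0.05 it placed 18 of the 28 members lower in Idh-R195H, where 1.21% of all probe sets were called lower; the rule used this contrast, so nothing is read from the count. The 10 members that did not pass had adjusted p-values in limma from 0.061 to 0.132. They were CG12310, CG30197, CG15404, CG7606, CG31698 and CG4928, which differed most among the control arrays, and CG17752, CG11892, CG34296 and CG10514, which differed most among the Idh-R195H arrays outside that set.

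Among the members are 4 genes known as enzymes of small-molecule metabolism. CG31075, an aldehyde dehydrogenase gene, had intensities of 744, 1021 and 3022 on the Idh-R195H arrays and 14239, 17898 and 13684 on the control arrays. CG4860, a short-chain acyl-CoA dehydrogenase gene of fatty acid breakdown, had 623, 520.2 and 427 on the Idh-R195H arrays and 2369, 2433 and 2144 on the control arrays. Both groups of CG4860 were tight, with the highest array at most 1.46 times the lowest, whereas CG31075 was 4.06 times as high on Idh-R195H replicate 3 as on replicate 1. CG1544 is the counterpart of human DHTKD1, an oxoacid dehydrogenase of lysine breakdown related to the 2-oxoglutarate dehydrogenase subunit. It had 274, 241 and 359.7 on the Idh-R195H arrays and 1514, 1604 and 1087 on the control arrays, the smallest margin of all members. CG30016, a hydroxyisourate hydrolase gene of uric acid breakdown, had 45.1, 99.3 and 142 on the Idh-R195H arrays and 569.8, 1017 and 807 on the control arrays.

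CG33458, a gene of the trypsin-like serine protease family, had 67.8, 69.3 and 128 on the Idh-R195H arrays and 1722, 1526 and 1539 on the control arrays. This was the largest margin among the 28, with the lowest control value 11.9 times the highest Idh-R195H value, and the control arrays hardly differed. CG8539, a metallocarboxypeptidase gene, had 49.4, 105 and 88.1 on the Idh-R195H arrays and 335, 539 and 367 on the control arrays, close to the floor of the rule in control. CG17919, a gene of the phosphatidylethanolamine-binding protein family, had 178, 173 and 162 on the Idh-R195H arrays and 2255, 1499.9 and 1737 on the control arrays. Its Idh-R195H arrays were nearly equal, and its limma adjusted p, 0.0049, was the lowest of the members.

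Membrane transporters were represented by 3 members. CG17752, an organic ion transporter gene of the SLC22 type, had 22.9, 112 and 272 on the Idh-R195H arrays and 1007, 1625 and 1159.6 on the control arrays. The Idh-R195H arrays spread 11.9-fold, the widest such spread after CG12310, while the control arrays spread 1.61-fold. CG33281, a sugar transporter gene, had 35.0, 84.8 and 114 on the Idh-R195H arrays and 518, 676 and 445 on the control arrays. It was the only member with another single-gene probe set, which read 109, 95.1 and 156 in Idh-R195H and 373, 408 and 306 in control. That probe set was also lower on every Idh-R195H array but did not reach the fold threshold. CG4928, an UNC93-like membrane protein gene, had 21.4, 92.7 and 94.2 on the Idh-R195H arrays and 378, 1986 and 1572 on the control arrays, so its value on control replicate 1 stood well below the other controls.

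The members CG10514 and CG11892 belong to the ecdysteroid kinase-like family and are adjacent coding genes on chromosome arm 3R. CG10514 had 104, 224 and 468 on the Idh-R195H arrays and 1572, 3841 and 1697 on the control arrays. CG11892 had 64.6, 226 and 454 on the Idh-R195H arrays and 1402, 4532 and 1883 on the control arrays. Both were highest on control replicate 2 and on Idh-R195H replicate 3. The next gene, CG10513, of the same family, had 58.7, 213 and 908 on the Idh-R195H arrays and 1087, 2514 and 1241 on the control arrays, the same order of arrays with a smaller margin. The probe set of CG11892, like those of CG4928 and CG32280, is named as one whose probes can match more than 1 transcript, so related genes may contribute to its value.

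The other 16 members have no role given here, except CG3625, a gene of the AIG1 family of membrane proteins, which had 606, 705 and 1249 on the Idh-R195H arrays and 4915, 6405 and 4887 on the control arrays. CG31999 on chromosome 4 had 312, 259 and 325 on the Idh-R195H arrays and 7519, 4117 and 3305 on the control arrays. CG42807 had 2346, 2829.8 and 3475 on the Idh-R195H arrays and 37873, 27078 and 30585 on the control arrays. Both had wide margins, with the lowest control value 10.2 and 7.79 times the highest Idh-R195H value, and CG42807 was still high in Idh-R195H hemocytes. CG2444 had 1977, 2124 and 4297 on the Idh-R195H arrays and 17849, 17384 and 14237 on the control arrays. CG34232 had 441, 484 and 632 on the Idh-R195H arrays and 3865, 3200.0 and 2699 on the control arrays. The control arrays of both spread by less than 1.5-fold, and the margin was 3.31-fold for CG2444 and 4.27-fold for CG34232, given as the lowest control over the highest Idh-R195H value.

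Another 6 genes with no role given here had margins of 3.12-fold to 3.84-fold. CG42369 had 709.5, 1003 and 1689.8 on the Idh-R195H arrays and 10732, 6489 and 6844 on the control arrays. CG8788 had 102, 160.0 and 232 on the Idh-R195H arrays and 869.8, 1645 and 1159 on the control arrays. CG15343 had 535, 896 and 1937 on the Idh-R195H arrays and 7045, 7693 and 9005 on the control arrays. All 3 were highest on Idh-R195H replicate 3 within that group, but each had a different highest control array. CG34296 had 95.8, 593 and 437 on the Idh-R195H arrays and 2032, 6399 and 2724 on the control arrays. CG32280 had 516, 563 and 522 on the Idh-R195H arrays and 1859.8, 4156 and 4966 on the control arrays. CG46491 had 416, 325 and 476 on the Idh-R195H arrays and 3290.0, 2011 and 1484 on the control arrays. The Idh-R195H arrays spread 6.19-fold for CG34296 and only 1.09-fold for CG32280, and CG46491 was highest on control replicate 1, where CG32280 was lowest among the controls.

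**Figure D2:**
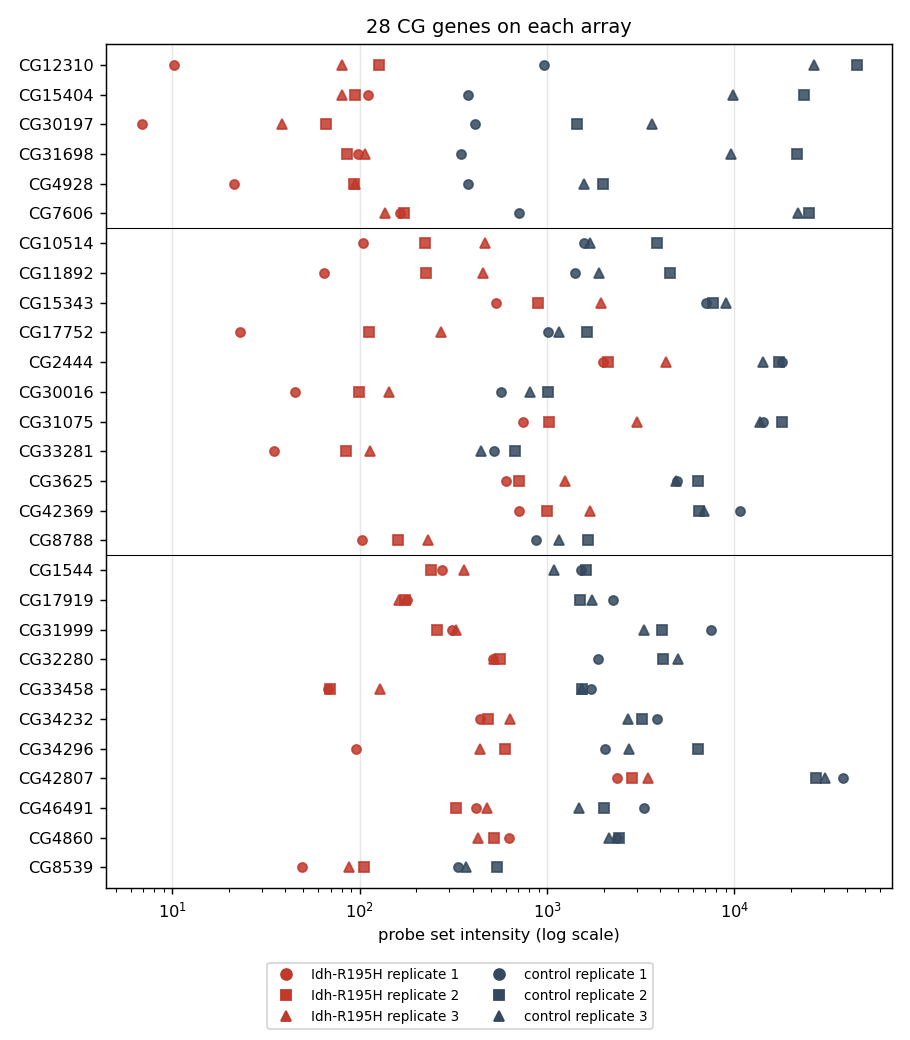
Intensity (log scale) of each of the 28 genes on each Idh-R195H array (red) and control array (dark), with the replicate number given by the marker shape. Lines separate 6 genes in which control replicate 1 lay below the other controls by over 3-fold, 11 in which Idh-R195H replicate 3 was the highest and over 2 times replicate 1, and 11 others.

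A set of 6 members, formed after the values were seen, differed widely over the control arrays. On control replicate 1, CG12310, CG15404, CG31698, CG7606, CG30197 and CG4928 each lay below the other control arrays by over 3-fold. These are 21.4% of the members, and 2.79% of 5119 other probe sets above 300 on all control arrays did the same. The shares are given only as a description. CG12310 had 10.2, 126 and 80.1 on the Idh-R195H arrays and 962, 44912 and 26628 on control replicates 1, 2 and 3. CG15404 had 111, 94.2 and 80.4 on the Idh-R195H arrays and 376, 23569.6 and 9788 on the control arrays. CG31698, the coding gene adjacent to CG15404 on arm 2L, had 98.0, 85.6 and 106 on the Idh-R195H arrays and 348, 21462 and 9532 on the control arrays. In these genes the size of the fold rested on control replicates 2 and 3: for CG12310 the control mean was 335 times the Idh-R195H mean, while its lowest control value was 7.64 times the highest Idh-R195H value. CG30197 had 6.88, 65.9 and 38.5 on the Idh-R195H arrays and 413, 1443 and 3636 on the control arrays.

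Many markers of several tissues were also low on control replicate 1 among the controls. By the same measure, 9 of 13 midgut markers and 5 of 11 male gonad markers lay over 3-fold below both other controls on control replicate 1, against 1 of 11 fat body markers and none of the plasmatocyte markers. The summed male gonad markers were highest on control replicate 3. These sums were higher on every Idh-R195H array than on control replicate 1. The rule allows no member such an order, so nothing is read from this difference. Of 12 salivary gland markers, 8 lay on control replicate 1 below both other controls by over 3-fold, and the mean of control replicates 2 and 3 was a median of 14.2 times control replicate 1. CG7606 had 165, 172 and 136 on the Idh-R195H arrays and 709, 25084 and 21788 on the control arrays, and it is the coding gene next to Sgs5 and 1 removed from Sgs5bis. Sgs5 had 164, 988 and 262 on the Idh-R195H arrays and 4346, 44460.1 and 50709.5 on the control arrays, and Sgs5bis had 52.8, 76.2 and 94.4 on the Idh-R195H arrays and 683, 37155 and 25916 on the control arrays. The glue genes and CG7606 were thus each far higher on control replicates 2 and 3 than on control replicate 1, and lower still on every Idh-R195H array. The part of salivary gland, midgut or male gonad RNA in the values of these 6 members was not tested.

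A further 11 members, also grouped after the values were seen, shared an order of the Idh-R195H arrays. In CG10514, CG11892, CG15343, CG17752, CG2444, CG30016, CG31075, CG33281, CG3625, CG42369 and CG8788, Idh-R195H replicate 3 was the highest of its group and over 2 times replicate 1. CG4928 shared this order by a small margin over replicate 2. With CG4928 counted, 12 of 28 members (42.9%) had this order, against 2.60% of 5119 other probe sets above 300 on all control arrays. The other probe sets were chosen on control intensity alone, while this order is taken on the Idh-R195H arrays, where the rule kept the members low. The shares are therefore not alike and are only a description. Among 11 fat body markers 6 had the same order, as did 7 of 13 midgut markers, and none of the 12 salivary gland markers did. Fbp1, a fat body receptor gene for storage proteins, had 903, 3937 and 14487 on the Idh-R195H arrays and 10730.0, 34657 and 26917 on the control arrays. Lsp2, a storage protein gene, had 3763, 9494 and 19484 on the Idh-R195H arrays and 21016, 43958 and 39941 on the control arrays. Fbp1 was higher on Idh-R195H replicate 3 than on control replicate 1, so its groups overlapped, while the rule kept every member below the controls by over 3-fold on that array. The part of fat body or midgut RNA in the values of these members was not tested.

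**Figure D3:**
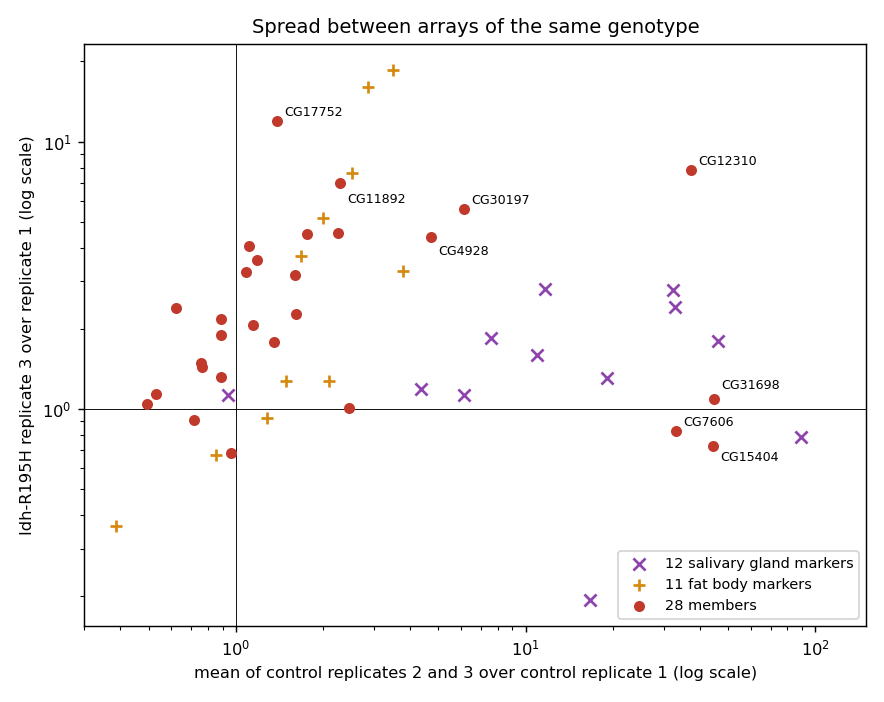
Spread between arrays of the same genotype, as control replicates 2 and 3 (mean) over control replicate 1 (horizontal, log scale) and Idh-R195H replicate 3 over replicate 1 (vertical, log scale), for the 28 members (red), 12 salivary gland markers (crosses) and 11 fat body markers (plus signs). CG12310, CG7606, CG15404 and CG31698 lie at 33.1 to 44.5 on the horizontal axis, and CG17752 lies highest of the members at 11.9 on the vertical axis. On the horizontal axis the salivary gland markers run from 0.94 to 89.4. The midgut markers, which are not drawn, run from 0.399 to 123.5 by the same ratio.

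The remaining 11 members had no such order of arrays. Their highest Idh-R195H array was 1.09 to 6.19 times the lowest and their highest control array 1.13 to 3.15 times the lowest, with CG34296 the widest in both groups, and the 10 others passed in limma. They held 6 of the 8 members that were highest on control replicate 1, namely CG33458, CG31999, CG17919, CG42807, CG34232 and CG46491; the other two were CG42369 and CG2444. Over all 28 members the share highest on control replicate 1 was 28.6%, against 63.5% of the other probe sets above 300 on all controls. Among the plasmatocyte markers 10 of 11 were highest on that array. Nothing is read from the count in these 11 members.

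Genes adjacent to members were described from the gene order of the Release 6 assembly. Of 52 adjacent coding genes that are not members, 45 had a single-gene probe set. Of these, 16 (35.6%) lay lower on every Idh-R195H array than on every control array, against 16.2% of all probe sets. Each of the 45 was the brightest single-gene probe set of its gene, and 18 were above 300 on all control arrays. All probe sets include dim ones and several per gene, so these shares are not alike. Sgs5 and yellow-h alone among the 45 met both thresholds of the rule. The gene next to CG31999 is yellow-h, of the yellow family, which had 22.7, 23.7 and 17.8 on the Idh-R195H arrays and 1594, 636 and 434 on the control arrays. Both genes were highest on control replicate 1 and lowest on control replicate 3 among the controls. CG31076, next to CG31075, had 60.3, 85.1 and 339 on the Idh-R195H arrays and 780.0, 2907 and 1807 on the control arrays. Like CG31075 it was highest on Idh-R195H replicate 3 within that group. CG33459, next to CG33458, had 1229, 1069 and 1491 on the Idh-R195H arrays and 7242, 4110.3 and 4035 on the control arrays, a smaller margin than that of its neighbour.

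**Figure D4:**
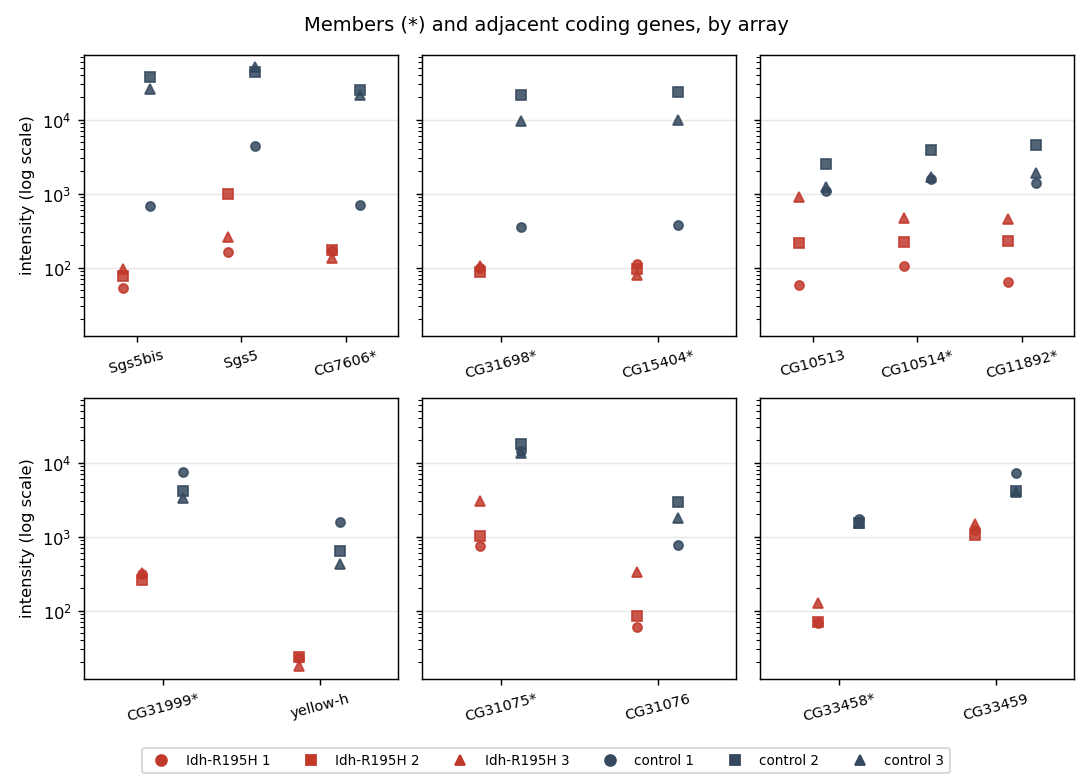
Intensity (log scale) on each Idh-R195H array (red, left) and control array (dark, right) for members (asterisk) and coding genes next to them, in 6 neighbourhoods. Control replicate 1 (circle) lies far below the other controls for Sgs5bis, Sgs5, CG7606, CG31698 and CG15404, and above them for CG31999, yellow-h and CG33459.

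Over the marker lists, limma at an adjusted p below 0.05 called 1 of 12 salivary gland markers lower, with a median log2 fold change of -5.46, and none of 11 fat body markers (median -1.49) or 13 midgut markers (median -1.86). It called 1 of 10 cuticle markers lower (median -0.77), 1 of 10 muscle markers lower and 1 higher (median -1.19), 1 of 7 ring gland markers lower (median -0.17) and 1 of 5 crystal cell markers lower (median -0.80). The muscle marker called higher was TpnC73F, which is also known from lamellocytes. None of 7 Malpighian tubule markers (median -0.45), 11 male gonad markers (median -0.40) or 11 plasmatocyte markers (median -0.12) passed. At an unadjusted p below 0.05, limma placed 8 salivary gland, 3 fat body, 9 midgut, 3 cuticle, 4 muscle, 1 ring gland, 2 Malpighian tubule, 3 plasmatocyte and 3 crystal cell markers lower. At the same level it placed 1 fat body, 1 muscle, 1 male gonad, 2 plasmatocyte and all 9 lamellocyte markers higher. No share of all probe sets at this unadjusted level is given, so nothing is read from these unadjusted counts. Of 9 lamellocyte markers, 7 were called higher (median 3.97), where 1.9% of all probe sets were called higher. The summed lamellocyte markers stood at 85158 to 95597 in Idh-R195H and 7506 to 10218 in control, and the summed crystal cell markers at 27221 to 42518 in Idh-R195H and 64125 to 66169 in control. The part that these differences in hemocyte marker intensity have in the members' values was not tested.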

How the data were processed

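The deposited table gives a linear intensity for each probe set on each array. The mean of every array is 500.0 once 2% of values are dropped from both ends, which shows that the arrays had been scaled to a common mean before deposit; per the submitters' processing notes Partek 6.0 was used, with no role given, and the summarisation method is not given in the sources used here. Per the labels' protocols, biotin-labelled cRNA was made from 6 ug of total RNA. The labels call the samples biological replicates. The number of arrays limits the precision.

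Of 18952 probe sets, 183 array controls were left out. Gene names came from the platform annotation; all 28 members have the same symbol in RefSeq's gene table (Release 6 assembly), which served for names, chromosomes and gene order. Where several probe sets of a gene met the rule, the one with the highest mean stood for it. Limma 3.58.1 (R 4.3.3) compared the groups on log2(intensity + 1), with moderated two-sided tests adjusted by Benjamini-Hochberg over the 18769 other probe sets; the steps were tested on simulated arrays. All members are named; the naming rule asked for values per array for the 12 with the widest margins, those with an adjacent or related member and those nearest the threshold, and the values of the other members were added later. Members and marker lists were chosen with earlier results of these data known, and the sets by order of arrays were formed after the values were seen. Alternatives were other thresholds and scalings, another added constant, a filter on dim probe sets, a trended robust prior, the replicate number as a block and leaving out each array.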

Additional observations from a re-analysis of the deposited data

How the results depend on the processing

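All 28 members kept a negative log2 fold change in each alternative scaling, with a constant of 16 and without each array. The rule fixes this sign when an array is left out or a constant is added, and leaves little room for a change under other scalings. Nothing is therefore read from it. How many genes meet the rule depends on its settings. The count was 68 with a fold threshold of 2, 11 with a fold threshold of 4 and 5 after scaling on the hybridisation controls. Without single arrays it ran from 28 to 61, with the highest counts without control replicate 1 (61) and without Idh-R195H replicate 3 (59). Leaving out an array can only keep or raise this count, because every member still meets the rule on the arrays that remain. The 5 genes that met the rule after scaling on the hybridisation controls, which were 1.95 times as bright on control arrays as on Idh-R195H arrays, were CG12310, CG17919, CG31999, CG33458 and CG42807; under that scaling the median log2 fold change was 0.83 over all probe sets and -2.38 over the members, against -0.11 and -3.34 with the deposited scaling. With limma, the members called lower numbered 18 and ran from 0 to 21 without single arrays: 3, 0 and 7 without Idh-R195H replicates 1, 2 and 3, and 21, 4 and 8 without control replicates 1, 2 and 3. Over all probe sets 228 were called lower, against 115 after centring on array medians, 380 with a constant of 16, 577 without dim probe sets and 586 with an intensity trend, and 0 to 327 without single arrays. With the replicate number as a block, limma called 0 members and 0 probe sets lower, while 28 members and 1897 probe sets had an unadjusted p below 0.05; without Idh-R195H replicate 2 these were 28 and 1552. Deviations of same-numbered arrays correlated at -0.07 to 0.03, and those of other pairs of arrays at -0.07 to 0.06. With 3 arrays per group this cannot settle whether same-numbered samples were handled together, and the labels do not say. Leaving out an array leaves fewer samples; the cause of the other changes was not tested. The table holds no background or detection values, so the signal that a probe set needs to be told from background is unknown.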
